A study of Mus musculus with 6 samples.

Results

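Transcript levels of 10 enzymes of serine, glycine and one-carbon metabolism were examined in mouse embryonic stem cells (mESCs) cultured with leukemia inhibitory factor (LIF), with Oncostatin M (OSM), or with neither cytokine. The enzymes were Phgdh, Psat1, Psph, Shmt1, Shmt2, Mthfd1, Mthfd2, Mthfd1l, Gldc and Mat2a, taken by gene symbol from a list of the pathway. All 10 were among the 28584 genes of the deposited table, and all 10 were among the 18556 genes that passed the filter of 1 TPM (transcripts scaled for gene length and library depth) in 2 or more libraries.

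The cells came from 1 mESC line of a C57BL/6 and 129S6 background. They were first grown on mitomycin C-inactivated embryonic fibroblast feeders in serum medium with LIF. The cells were then moved to a basic medium with nothing added (-LIF-ESCs), with 1000 U/mL LIF (LIF-ESCs) or with 10 ng/mL OSM (OSM-ESCs). Whether feeders were kept after the move is not given in the sources used here. RNA was taken at passage 10, which the study counts as 10 further passages after the move. The basic medium of all 3 groups contained serum, glutamine and non-essential amino acids, a supplement that supplies serine and glycine to the cells. Each group had 2 libraries of poly-A RNA, described by the study as biological replicates, so that the p-values measure the spread between libraries of 1 line.

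Serine is made from an intermediate of glycolysis in 3 successive steps and is then split by serine hydroxymethyltransferase into glycine and a one-carbon unit carried on folate. The folate enzymes exist in paired forms, one set in the cytosol and one in mitochondria. Mitochondria oxidise serine-derived units to formate, which the cytosolic set uses for purine and thymidylate synthesis and for the methyl groups of methionine. In mESCs this metabolism is known to feed rapid DNA synthesis and the supply of S-adenosylmethionine, the methyl donor of DNA and histone methylation.

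The mitochondrial enzymes Mthfd2 and Shmt2 were the members that differed most between cultures with and without cytokine. Against -LIF-ESCs, Mthfd2 was 7.39-fold higher with LIF and 6.97-fold higher with OSM, and Shmt2 was 2.995-fold and 2.88-fold higher. Shmt1, the cytosolic counterpart of Shmt2, was the only one of the 10 that was lower with either cytokine, at 0.696 and 0.663 of its level in -LIF-ESCs on the scale of TPM + 1. None of the 10 passed the test between the cytokines.

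The groups were compared with limma on log2(TPM + 1), with p-values adjusted by the Benjamini-Hochberg method over all 18556 genes. A gene passed the test at an adjusted p under 0.05, and was called when its log2 fold change was also at least 1 in either direction. In LIF-ESCs against -LIF-ESCs, 9 members rose and 1 fell by the test, where 42.2% of all genes rose and 25.9% fell. Of the members, 3 were called higher (Mthfd2, Shmt2 and Psph) and 0 lower, beside 13.3% and 8.09% of all genes. In OSM-ESCs against -LIF-ESCs, 8 members rose, 1 fell and 1 (Gldc) did not pass, where 42.9% of all genes rose and 25.4% fell. The same 3 genes were called higher and 0 lower, beside 14.2% and 7.86% of all genes. These 2 comparisons share the -LIF libraries.

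Relative to cytokine-free cells, the median log2 fold change of the members was 0.50 with LIF and 0.46 with OSM, where the medians of all genes tested were 0.17 and 0.18. Because most genes were thus slightly higher in TPM with either cytokine, each member is also given below on a scale where every library was divided by its median ratio to the geometric mean of all libraries, which set the medians of all genes to 0.02 in both comparisons. On that scale 7 members rose and 1 fell with LIF, and 7 rose and 2 fell with OSM. Over all genes, 34.5% rose and 33.0% fell with LIF on that scale, and 34.4% rose and 32.9% fell with OSM. Of the members, Mthfd2 and Shmt2 were then called higher and 0 lower, beside 10.5% and 10.2% of all genes with LIF and 11.1% and 10.2% with OSM. In a fit of recovered reads with limma's voom, the same 2 of the 9 members it could take were called higher and 0 lower, beside 14.7% and 12.7% of all genes with LIF and 15.4% and 12.7% with OSM.

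**Figure D1:**
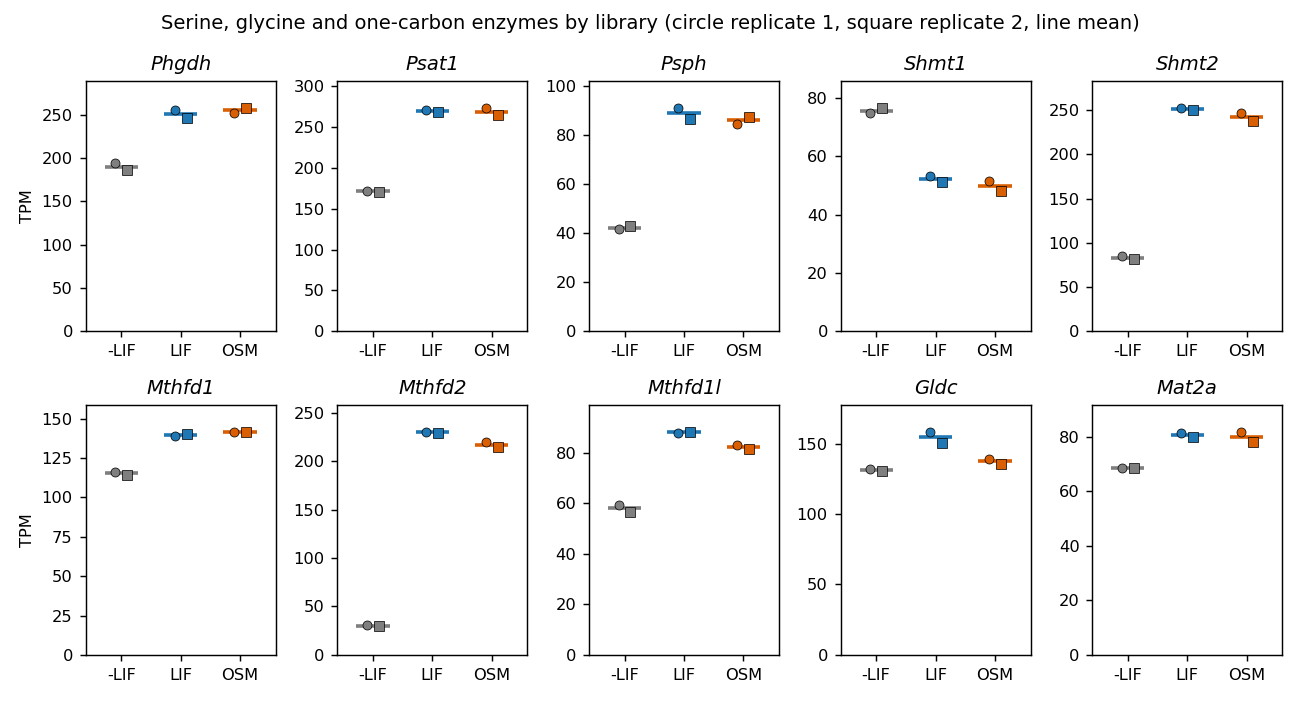
TPM of each enzyme (vertical axis, from 0) in the 2 libraries of -LIF-ESCs, LIF-ESCs and OSM-ESCs, with circles for replicate 1, squares for replicate 2 and lines for the means. Mthfd2 lies near 30 TPM in both -LIF libraries and at 214 TPM or more in the other 4, and Shmt1 is the single enzyme with its -LIF libraries on top.

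The 3 enzymes of serine synthesis were examined first. Phgdh (chr3:98313170-98339990 in GENCODE M21, GRCm38, as are the positions below) encodes the dehydrogenase that commits 3-phosphoglycerate to serine synthesis. It was measured at 194 and 186 TPM in the -LIF libraries, 255 and 246 in the LIF libraries, and 252 and 258 in the OSM libraries. Both libraries of each cytokine lay above both -LIF libraries, and those of LIF and OSM overlapped. Phgdh rose by a log2 fold change of 0.40 (SE 0.0374, limma adjusted p = 0.000372) with LIF and 0.43 (SE 0.0374, adjusted p = 0.000293) with OSM. After rescaling the values were 0.23 and 0.24, both still past the test.

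Psat1 (chr19:15904678-15947337), the aminotransferase of the next step, which takes nitrogen from glutamate, stood at 172 and 171 TPM without cytokine. It reached 270.4 and 269 TPM with LIF and 273 and 265 TPM with OSM, so that the -LIF libraries were again the lowest and those of the cytokines overlapped. With either cytokine it rose by 0.65 on the log2 scale (SE 0.0313), with limma adjusted p = 3.93e-05 for LIF and 3.84e-05 for OSM, and after rescaling it was 0.48 and 0.46.

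Psph (chr5:129765558-129787449), the phosphatase that releases free serine, had the largest relative difference of the 3. Its -LIF libraries held 41.5 and 42.7 TPM, the LIF libraries 91.0 and 86.5 TPM, and the OSM libraries 84.5 and 87.3 TPM. Every cytokine library was above both -LIF libraries. The log2 fold change was 1.06 (SE 0.0433, limma adjusted p = 2.42e-05) with LIF and 1.01 (SE 0.0433, adjusted p = 2.67e-05) with OSM, just past the limit of 1 for a call. After rescaling it was 0.89 and 0.83, under that limit but still past the test. Psph shares 452 of its 4329 exon bases with the oppositely transcribed Cct6a, at 398 TPM without cytokine and 422 TPM with LIF, and no strand setting is given in the sources used here, so that reads of the shared stretch cannot be told apart.

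Within a library, the ratio of Psph to Phgdh was 0.215 and 0.230 without cytokine, 0.357 and 0.351 with LIF, and 0.335 and 0.339 with OSM. That of Psat1 to Phgdh was 0.890 and 0.920 without cytokine, 1.06 and 1.09 with LIF, and 1.08 and 1.03 with OSM. In both ratios the -LIF libraries lay below all others, so that Psat1 and Psph transcripts were higher relative to those of Phgdh with either cytokine. The overlap of Psph with Cct6a applies to the ratio of Psph as well. These ratios do not depend on the scaling of a library, and no test was run on them.

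Serine hydroxymethyltransferase is encoded by Shmt2 (chr10:127517123-127522444) for mitochondria and by Shmt1 (chr11:60788104-60811718) for the cytosol, and the pair moved in opposite directions. Shmt2 held 85.1 and 81.5 TPM in the -LIF libraries, 253 and 249.9 TPM in the LIF libraries, and 246 and 237 TPM in the OSM libraries. The 3 groups did not overlap, with OSM slightly under LIF and both far above -LIF. Shmt2 rose by 1.58 on the log2 scale (SE 0.0379, limma adjusted p = 6.17e-06) with LIF and by 1.53 (SE 0.0379, adjusted p = 6.05e-06) with OSM, or 1.41 and 1.34 after rescaling.

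Shmt1 held 74.7 and 76.7 TPM without cytokine, 53.4 and 51.4 TPM with LIF, and 51.7 and 48.1 TPM with OSM. Both -LIF libraries were thus the highest, and the LIF and OSM libraries overlapped. Its log2 fold change was -0.52 (SE 0.0499, limma adjusted p = 0.000406) with LIF and -0.59 (SE 0.0499, adjusted p = 0.00025) with OSM, and rescaling moved these to -0.69 and -0.78. Of its 3883 exon bases, 184 lie on the opposite strand of exons of Smcr8, which averaged 10.1 TPM without cytokine and 22.9 TPM with LIF.

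The ratio of Shmt2 to Shmt1 transcripts was taken in each library. It was 1.14 and 1.06 in the -LIF libraries, 4.74 and 4.87 in the LIF libraries, and 4.77 and 4.94 in the OSM libraries. Transcripts of Shmt2 and Shmt1 were thus nearly level without cytokine, while those of Shmt2 prevailed in all 4 cytokine libraries. Protein in either compartment was not measured.

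The MTHFD enzymes carry the one-carbon unit between formate and the more reduced folates. Mthfd2 (chr6:83305691-83325908), the mitochondrial dehydrogenase and cyclohydrolase, was at 30.6 and 30.0 TPM without cytokine. It was at 231 and 229.5 TPM with LIF and at 220.0 and 214 TPM with OSM. No libraries of different groups overlapped, and the gap between the cytokines was small beside the gap to -LIF-ESCs. Mthfd2 rose by 2.88 on the log2 scale (SE 0.0329, limma adjusted p = 1.42e-06) with LIF and by 2.80 (SE 0.0329, adjusted p = 1.35e-06) with OSM, and by 2.72 and 2.62 after rescaling.

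Mthfd1l (chr10:3973118-4167081), the mitochondrial synthetase that releases formate, held 59.4 and 56.7 TPM without cytokine, 87.9 and 88.5 TPM with LIF, and 83.0 and 81.7 TPM with OSM. The groups were separate, in the order -LIF, OSM, LIF. Its log2 fold change was 0.60 (SE 0.0387, limma adjusted p = 0.0001) with LIF and 0.50 (SE 0.0387, adjusted p = 0.000188) with OSM, or 0.42 and 0.31 after rescaling.

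Mthfd1 (chr12:76255298-76319803), the trifunctional enzyme of the cytosol, changed less. It stood at 116 and 114 TPM in the -LIF libraries, 139 and 140.5 TPM in the LIF libraries, and 141 and 142 TPM in the OSM libraries, with no overlap between groups. The log2 fold change was 0.28 (SE 0.0302, limma adjusted p = 0.000683) with LIF and 0.29 (SE 0.0302, adjusted p = 0.000537) with OSM. Rescaling brought it to 0.10 and 0.11, still past the test with adjusted p = 0.0323 and 0.0281.

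Mthfd2 relative to Mthfd1 was 0.263 and 0.262 in the -LIF libraries, 1.66 and 1.63 in the LIF libraries, and 1.56 and 1.51 in the OSM libraries. Mthfd2 transcripts were therefore fewer than those of Mthfd1 without cytokine and more numerous with either one. Mthfd1l relative to Mthfd1 moved in the same direction over a narrower range, from 0.511 and 0.495 without cytokine to 0.632 and 0.630 with LIF and 0.587 and 0.576 with OSM.

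**Figure D2:**
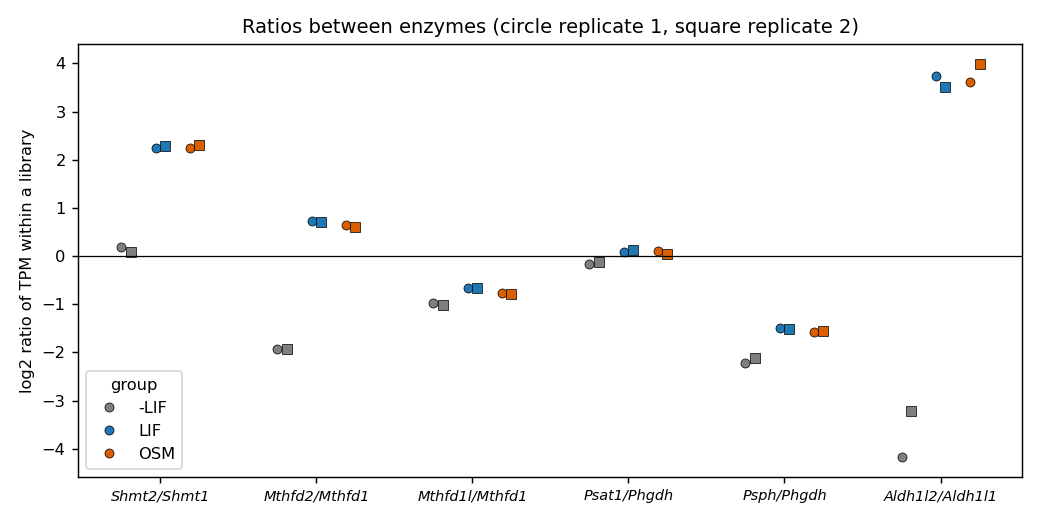
Ratio of TPM between paired enzymes in each library, on a log2 axis where 0 means equal levels, with circles for replicate 1 and squares for replicate 2. The ratios of Shmt2 to Shmt1 and of Mthfd2 to Mthfd1 are far higher in the 4 cytokine libraries than in the 2 -LIF libraries, and the pair Aldh1l2 and Aldh1l1 was added after its values were seen.

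The promoter sequences of the 3 genes with the clearest contrast are shown for reference, since Mthfd2 and Shmt2 rose and Shmt1 fell. Each line gives the 250 bases before the RefSeq start site, 5′ to 3′ on the gene's strand in GRCm38.p6, with the letters CCAAT, or ATTGG where the motif is on the other strand, in capitals. The windows are chr6:83317605-83317854 for Mthfd2, chr10:127522445-127522694 for Shmt2 and chr11:60811266-60811515 for Shmt1, all on the minus strand.
Mthfd2: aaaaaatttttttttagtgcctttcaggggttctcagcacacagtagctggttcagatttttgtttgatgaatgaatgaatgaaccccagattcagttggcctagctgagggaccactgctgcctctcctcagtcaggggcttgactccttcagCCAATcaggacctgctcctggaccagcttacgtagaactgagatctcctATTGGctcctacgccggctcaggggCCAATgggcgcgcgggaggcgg
Shmt2: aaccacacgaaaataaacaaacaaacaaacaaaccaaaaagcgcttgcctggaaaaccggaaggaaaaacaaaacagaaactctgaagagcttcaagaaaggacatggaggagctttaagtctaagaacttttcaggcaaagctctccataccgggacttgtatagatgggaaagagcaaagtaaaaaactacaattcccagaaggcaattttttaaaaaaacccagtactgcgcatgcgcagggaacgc
Shmt1: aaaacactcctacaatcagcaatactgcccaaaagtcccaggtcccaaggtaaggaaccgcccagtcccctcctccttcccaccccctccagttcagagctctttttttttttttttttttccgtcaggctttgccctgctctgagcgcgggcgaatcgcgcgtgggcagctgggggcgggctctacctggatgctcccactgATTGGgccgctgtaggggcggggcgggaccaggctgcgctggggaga

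Mthfd2 held 3 CCAAT motifs, Shmt1 held 1 and Shmt2 held 0. Of all 32851 RefSeq windows, 33.8% held at least 1, 10.1% at least 2 and 2.79% at least 3, searched on both strands. Among the other members, Phgdh and Psph each held 2, Mthfd1, Mat2a and Gldc held 1, and Mthfd1l held 0. Psat1 has 2 listed start sites, of which one window held 2 and the other 0. The CCAAT motif was chosen after the sequences had been seen. TGATGNAA, the core of the composite element of ATF4 and C/EBP, and the E-box CACGTG were searched in the same way in windows that also took in 50 bases after the start. Neither was in any of the 11 windows of the 10 members, and 3.97% and 7.15% of all windows held them. These are matches of letters in short windows, not measured binding sites.

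Gldc and Mat2a lie at the edges of the pathway. Gldc (chr19:30098447-30175429), the decarboxylase of the mitochondrial glycine cleavage system, held 132 and 130.3 TPM in the -LIF libraries, 159 and 150.3 TPM in the LIF libraries, and 139 and 136 TPM in the OSM libraries. The LIF libraries were the highest and the -LIF libraries the lowest, with OSM in between and no overlap. It rose with LIF by a log2 fold change of 0.23 (SE 0.0391, limma adjusted p = 0.0034). With OSM the value was 0.07 (95% interval -0.03 to 0.17, limma adjusted p = 0.177), which did not pass. Gldc was the member whose direction depended on scaling: after rescaling its log2 fold change was 0.06 (adjusted p = 0.183) with LIF and -0.12 (adjusted p = 0.0339) with OSM.

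Mat2a (chr6:72432799-72439558), the enzyme that makes S-adenosylmethionine from methionine outside the liver, was at 68.5 and 68.6 TPM without cytokine, 81.4 and 80.1 TPM with LIF, and 82.0 and 78.2 TPM with OSM. The cytokine libraries overlapped each other and lay above both -LIF libraries. Its log2 fold change was 0.23 (SE 0.0384, limma adjusted p = 0.00322) with LIF and 0.22 (SE 0.0384, adjusted p = 0.00398) with OSM. After rescaling these were 0.06 (adjusted p = 0.129) and 0.04 (adjusted p = 0.34), so that its rise was not past the test relative to the median gene. Mat2a shares 508 of 4486 exon bases with the oppositely transcribed Particl, whose group means were 18.9 to 24.0 TPM.

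Taking the 10 enzymes by level, Phgdh and Psat1 were the most abundant transcripts of -LIF-ESCs, at means of 189.7 ± 5.43 and 172 ± 0.887 TPM (SD, n = 2). Mthfd2 was the least abundant at 30.3 ± 0.433 TPM, and no neighbours in that order overlapped. In LIF-ESCs Psat1 came first at 269 ± 1.33 TPM, followed by Shmt2 at 251 ± 1.98 and Phgdh at 251 ± 6.34 TPM, whose libraries overlapped. Mthfd2 was in place 4 of 10 at 230.1 ± 0.850 TPM, while Shmt1 was in the last place at 52.4 ± 1.42 TPM. OSM-ESCs had the same genes in places 4 and 10, with Mthfd2 at 217 ± 3.98 TPM and Shmt1 at 49.9 ± 2.54 TPM. Farther down, Psph and Mthfd1l overlapped in the LIF order and Mthfd1l and Mat2a in the OSM order. Summed over the 10, the enzymes took 974 and 958 TPM in the -LIF libraries, 1621 and 1592 in the LIF libraries, and 1574 and 1547 in the OSM libraries.

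Against -LIF-ESCs, the libraries of 9 members did not overlap and were higher with cytokine, and those of 1 were lower, in each of the comparisons. Over all genes tested this was so of 50.9% (higher) and 33.4% (lower) for LIF, and of 51.5% and 32.4% for OSM, so that separation of 2 against 2 libraries was common. An exact two-sided permutation test of 2 against 2 libraries cannot go below p = 0.333. The whole reads recovered from TPM put 973 to 13645 reads on a member in a library for the 9 members other than Gldc, whose reads were not recovered and whose depth is unknown. The counting error of their log2 fold changes was 0.0134 to 0.0331, smaller than every fitted difference from -LIF-ESCs.

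**Figure D3:**
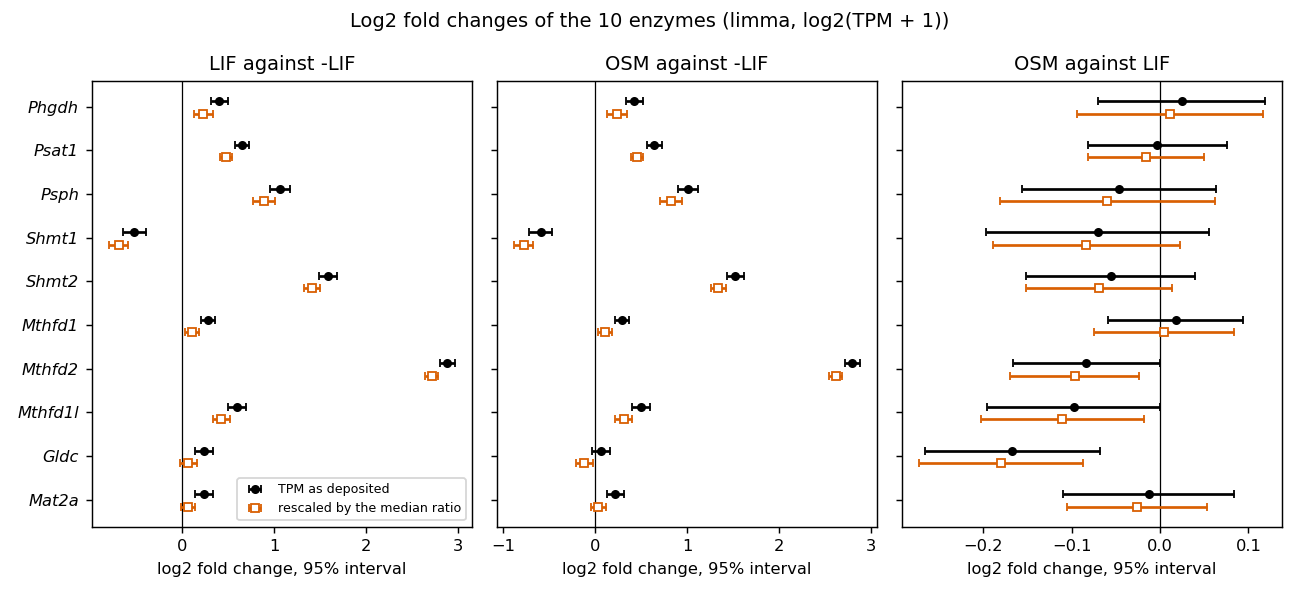
Log2 fold changes of the 10 enzymes with 95% intervals in the 3 comparisons, from TPM as deposited (filled circles) and after rescaling by the median ratio (open squares), with a narrower axis for OSM against LIF. Mthfd2 and Shmt2 stand apart on both scales, Shmt1 lies below 0 on both, and Gldc crosses 0 with OSM when rescaled.

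OSM signals through the gp130 receptor subunit that LIF also uses, and OSM-ESCs were compared with LIF-ESCs directly. None of the 10 members passed the test, where 0.463% of all genes were higher and 0.129% lower in OSM-ESCs, and 0 were called, beside 0.0323% and 0.0485% of all genes. At an unadjusted p under 0.05, 3 members were lower with OSM (Mthfd2, Mthfd1l and Gldc) and 0 higher, beside 5.5% of all genes that were lower and 9.8% that were higher. The voom fit put 0 of 9 members past the test, although it put 1337 of 17272 genes past it, where the fit of TPM had 110 of 18556. Gldc, the member that voom could not take, had the smallest unadjusted p of the 10 in the limma fit of TPM, at 0.00688.

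The differences between the cytokines were small. Gldc had the largest, a log2 fold change of -0.17 (95% interval -0.27 to -0.07, limma adjusted p = 0.16). Mthfd1l followed at -0.10 (interval -0.20 to -0.0001, adjusted p = 0.327), and Mthfd2 at -0.08 (interval -0.17 to -0.0004, adjusted p = 0.326). For Shmt2 the value was -0.06 (interval -0.15 to 0.04) and for Shmt1 -0.07 (interval -0.20 to 0.06). The serine synthesis enzymes had 0.02 for Phgdh (interval -0.07 to 0.12), -0.003 for Psat1 (interval -0.08 to 0.08) and -0.05 for Psph (interval -0.16 to 0.06). Mthfd1 had 0.02 (interval -0.06 to 0.09) and Mat2a -0.01 (interval -0.11 to 0.08). The intervals of all 10 members thus excluded a difference of 1 on the log2 scale in either direction. Libraries of 4 members (Shmt2, Mthfd2, Mthfd1l and Gldc) lay lower with OSM without overlap and those of 1 (Mthfd1) higher, while 20.9% and 26.3% of all genes were so separated.

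The rest of the pathway was followed over 42 further genes of serine, glycine, folate, methionine and transsulfuration metabolism. Of these, 37 passed the filter, and Ftcd, Bhmt, Sds, Sdsl and Sardh did not. In LIF-ESCs against -LIF-ESCs, 20 of the 37 rose, 9 fell and 8 did not pass the test, with a median log2 fold change of 0.32. In OSM-ESCs 20 rose, 8 fell and 9 did not pass, with a median of 0.38. Beside these, 42.2% of all genes tested rose and 25.9% fell with LIF, and 42.9% rose and 25.4% fell with OSM. After rescaling, 16 rose and 12 fell with LIF, and 17 rose and 12 fell with OSM, so that the list as a whole was mixed in direction. On that scale 34.5% of all genes rose and 33.0% fell with LIF, and 34.4% rose and 32.9% fell with OSM.

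Cth, the lyase that makes cysteine in transsulfuration, was among the genes of the list furthest from their level without cytokine. It was at 20.9 and 22.6 TPM without cytokine, 289 and 280.0 TPM with LIF, and 269 and 253 TPM with OSM, with log2 fold changes of 3.65 (limma adjusted p = 2.05e-06) and 3.53 (adjusted p = 2.12e-06). All 4 cytokine libraries lay far above the -LIF libraries, and OSM lay below LIF without overlap.

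Aldh1l2, the mitochondrial dehydrogenase of formyl-tetrahydrofolate, was at 0.235 and 0.372 TPM without cytokine, 15.7 and 14.3 TPM with LIF, and 15.7 and 14.9 TPM with OSM. Its log2 fold change was 3.62 with LIF and 3.64 with OSM (limma adjusted p = 7.57e-06 and 6.78e-06), which the added 1 TPM understates at so low a level. The cytosolic form Aldh1l1, named after its values were seen, fell by 1.13 with LIF and by 1.20 with OSM on the log2 scale, from 4.24 and 3.47 TPM to between 0.931 and 1.29 TPM in the cytokine libraries. The ratio of the mitochondrial to the cytosolic form was 0.0555 and 0.107 in the -LIF libraries and between 11.4 and 15.9 in the others, the direction also seen for Shmt2 and Shmt1.

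Carriers of serine and glycine were also higher with either cytokine. Slc1a5, a transporter of neutral amino acids, rose from 17.5 and 16.8 TPM to 128 and 127 TPM with LIF and 124 and 124 TPM with OSM (log2 fold changes 2.82 and 2.78). Slc6a9, the glycine transporter, rose by 2.87 with both on the log2 scale, and Slc1a4, which carries serine and alanine, rose by 1.39 with both. Folr1, a folate receptor, rose by 1.82 with LIF and 1.97 with OSM. The limma adjusted p of these 4 genes was at most 2.4e-05.

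Mat1a, the form of methionine adenosyltransferase typical of liver, went the other way from Mat2a. It had 96 and 48 recovered reads in the -LIF libraries and 0 in all 4 cytokine libraries, and was at least 20.9-fold lower with LIF and at least 25.1-fold lower with OSM against a floor of 3 reads per library. Its level in -LIF-ESCs was 2.45 and 1.49 TPM, well under the 68.5 and 68.6 TPM of Mat2a.

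The partners of Gldc in the glycine cleavage system, described after their values were seen, did not follow 1 direction. Amt, the aminomethyltransferase, rose by 1.09 with LIF and by 1.07 with OSM on the log2 scale, from 44.7 TPM in both -LIF libraries to 91.3 TPM or more in each cytokine library. Gcsh, the lipoate-bearing carrier protein, fell by 0.75 and by 0.72, from 149.6 and 162 TPM to 96.6 TPM or less. Dld, the dehydrogenase shared with other complexes, had log2 fold changes of -0.03 and -0.04, which did not pass the test (limma adjusted p = 0.619 and 0.541). Tdh, the threonine dehydrogenase that supplies glycine in mESCs, rose by 0.91 and 0.93, from 175 and 176 TPM to 332 and 327 TPM with LIF and 344 and 329 TPM with OSM. The glycine cleavage genes therefore rose, fell or did not pass, while Tdh was higher with either cytokine.

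**Figure D4:**
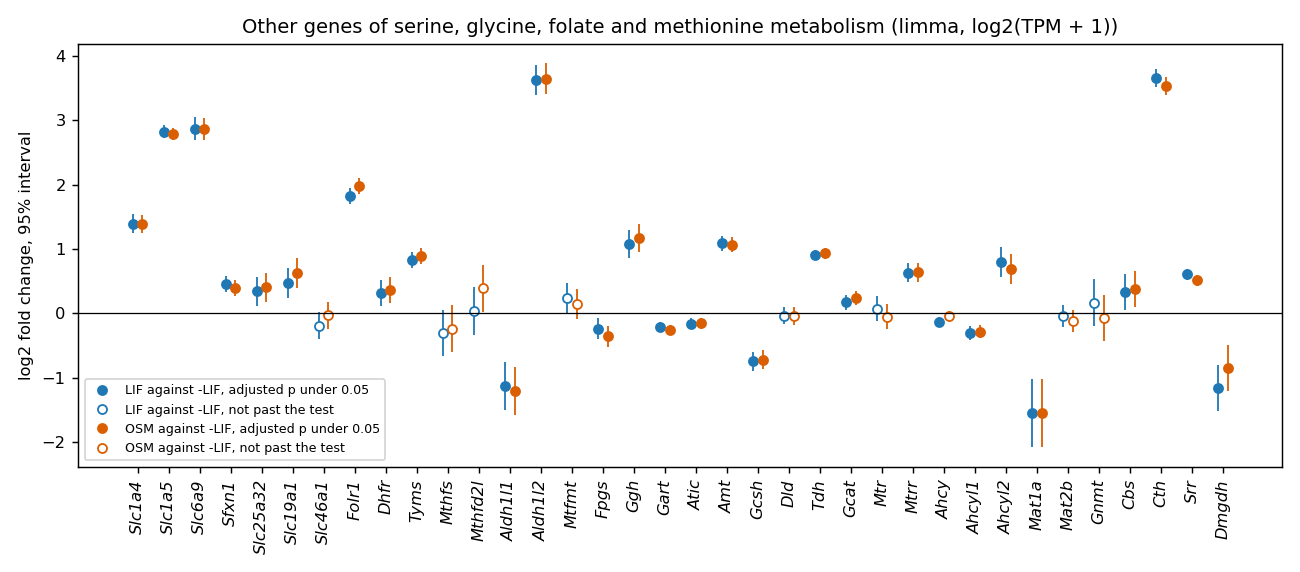
Log2 fold changes with 95% intervals for 36 of the 37 further pathway genes in LIF-ESCs (blue) and OSM-ESCs (orange) against -LIF-ESCs, with filled points for genes past the test and open points for the others. Cth, Aldh1l2, Slc6a9 and Slc1a5 lie highest, and the fitted value of Mat1a is drawn although its cytokine libraries held 0 reads.

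Comparing the cytokines, 0 of the 37 genes passed the limma test, and 2 were higher and 1 lower at an unadjusted p under 0.05. The smallest p-values were those of Folr1, with a log2 fold change of 0.15 (adjusted p = 0.261), Ahcy, the hydrolase of S-adenosylhomocysteine, with 0.09 (adjusted p = 0.285), and Srr, serine racemase, with -0.09 (adjusted p = 0.305).

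Phgdh, Psat1, Shmt2, Mthfd2 and Aldh1l2 are known targets of ATF4, the transcription factor of the amino acid response, and 23 further genes of that response were examined. Of these, 21 rose and 2 (Slc7a11 and Ddit4) fell against -LIF-ESCs with each cytokine, with median log2 fold changes of 1.77 and 1.73. Over all genes tested, 42.2% rose and 25.9% fell with LIF, and 42.9% rose and 25.4% fell with OSM. Atf4 itself was at 83.6 and 90.7 TPM without cytokine, 495 and 498 TPM with LIF, and 478 and 470.0 TPM with OSM, with log2 fold changes of 2.50 and 2.43. Chac1, which degrades glutathione, rose by 5.69 and 5.71, Trib3, a pseudokinase induced by ATF4, by 5.09 and 5.01, and Nupr1, a stress-induced chromatin protein, by 5.02 and 4.91. The limma adjusted p of these 4 genes was at most 3.19e-06. Between the cytokines 1 gene of the list passed, Ddit4, with a log2 fold change of -0.31 (adjusted p = 0.0494), which did not pass with a pseudocount of 0.1. ATF4 activity was not measured, and its part in the levels of the 10 enzymes was not tested.

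The libraries also differed in markers of cell identity, and their part in the results above was not tested. For the counts of the marker lists here and below, 42.2% of all genes rose and 25.9% fell with LIF. With OSM 42.9% rose and 25.4% fell. Total recovered reads were 20712941 to 28994418 per library. All 9 pluripotency genes examined were detected in every library (Pou5f1, Sox2, Nanog, Esrrb, Klf4, Zfp42, Nr0b1, Tbx3 and Tfcp2l1). Summed over these 9, TPM was 1930 to 1942 without cytokine, 3574 to 3687 with LIF and 3328 to 3379 with OSM. Of the 9, 8 were higher and 1 (Nanog) lower with each cytokine. Nanog averaged 433.4 TPM without cytokine, 289.9 with LIF and 261.1 with OSM. The study, in contrast, reports Nanog as higher with either cytokine in RNA-seq, and its protein in staining and western blot. Between the cytokines 1 (Nr0b1) was lower with OSM, beside 0.129% of all genes. The difference of Nr0b1 did not pass the test after rescaling or with a pseudocount of 0.1. Of 15 fibroblast genes, which feeders would express, 14 rose and 1 (Col5a1) fell with each cytokine. Of the 15, 5 were higher with OSM than with LIF, beside 0.463% of all genes. With a pseudocount of 0.1 it was 3, beside 52 of all 18556 genes. With a replicate block or only the groups compared, 0 of all genes passed between OSM and LIF. After rescaling, 7 of the pluripotency genes rose with OSM, beside 34.4% of all genes, and 13 fibroblast genes rose with LIF, beside 34.5%. The 15 fibroblast genes summed to 329.9 to 339 TPM without cytokine, 816 to 829 with LIF and 1067 to 1082 with OSM. None was at 0 in any library. Fn1 alone made up most of the sum without cytokine, at a mean of 238.2 TPM, against 380.1 with LIF and 453.6 with OSM. Col5a1, the 1 that fell, averaged 42.95 TPM without cytokine, 23.92 with LIF and 36.14 with OSM. Some others were near 0 without cytokine. Lox averaged 0.081 TPM there, 112.1 with LIF and 152.1 with OSM. Dcn averaged 0.056 TPM there, 10.7 with LIF and 13.03 with OSM.

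Of 8 trophectoderm genes, 7 were in the table, and all 7 fell with each cytokine. Their sum was 1825 to 1826 TPM in -LIF-ESCs and 59.0 to 73.9 TPM in the cytokine libraries. Most of the sum without cytokine came from the keratins Krt8 and Krt18, at means of 981.7 and 765.5 TPM. The others averaged 4.1 TPM (Cdx2), 4.6 (Gata3), 6.5 (Eomes), 27.5 (Hand1) and 35.6 (Tfap2c) without cytokine. Of the 8 primitive endoderm genes, 7 passed the filter, and 7 rose with LIF and 5 with OSM (5 and 4 after rescaling). The sum of the 8 went from 58.8 to 61.6 TPM without cytokine to 82.6 to 85.1 TPM with it. Lamb1 made up most of that sum, at means of 50.2, 55.8 and 61.2 TPM in -LIF-ESCs, LIF-ESCs and OSM-ESCs. Of the 5 primed epiblast genes, 1 rose and 4 fell, and the sum went from 184 to 187 TPM to 152 to 172 TPM. The 1 that rose, Dnmt3b, made up most of the sum with cytokine. Its means were 88.6, 110.7 and 126.4 TPM in -LIF-ESCs, LIF-ESCs and OSM-ESCs. Among the 4 that fell, Fgf5 averaged 17.7, 0.588 and 0.884 TPM and Otx2 32.5, 12.1 and 11.7 TPM in that order. Of the 5 mesoderm genes, 4 passed the filter, of which 1 rose and 3 fell, and Mesp1 and Hand2 were at 0 in at least 1 library. The sum of the 5 was 64.0 to 66.2 TPM without cytokine and 2.76 to 3.9 TPM with cytokine. Most of the sum without cytokine was T, at a mean of 60.65 TPM. In none of these last 4 lists did a gene pass the test between LIF and OSM. In such bulk samples a change in the share of a cell type and a change of RNA per cell cannot be told apart.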

How the data were processed

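RNA was sequenced from 6 libraries, 2 per group. The authors trimmed reads with Trimmomatic, used HISAT2 for alignment to mm10 and featureCounts for counting, and deposited TPM values. Tool versions, the annotation, the strand setting and the handling of multi-mapped reads are not given in the sources used here. For the 18556 genes that reached 1 TPM in 2 or more libraries, log2(TPM + 1) was fitted with limma 3.58.1 in R 4.3.3 (lmFit, eBayes with trend) in 1 model of the 3 groups (3 residual degrees of freedom), with Benjamini-Hochberg adjustment over all of them. The study tested read counts, whereas the deposited TPM values needed a test on the log scale.

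Reads were recovered by dividing each TPM value by the value of 1 read, given by the library and the GENCODE M21 (GRCm38) exon length: 99.4% of the 28584 symbols matched once and 95.4% of the values were whole within 0.02 of a read. They gave depth, counting error and bounds. Intervals and floors from reads cover counting error only. Limma's voom was run on the 17272 tested genes whose reads were whole in all libraries, a restriction chosen after seeing the data. Promoter windows were those of RefSeq (GRCm38.p6), matched by symbol for all 10 members.

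All 10 members were named in each comparison. Of the other pathway genes, up to 8 called with the largest log2 fold change against -LIF-ESCs were named, except 1 that is not reported here, and for OSM-ESCs against LIF-ESCs those past the test or else the 3 with the smallest p. Of the ATF4 list, Atf4 and the 3 with the largest log2 fold change were named. The members, lists and tests were chosen with earlier results of these data known. The alternatives tried were voom, which changed the unit, the scaling and the genes fitted together, and, 1 choice at a time, rescaling to the median ratio, a replicate block, a smaller pseudocount (0.1), a minimum of 5 TPM or none, eBayes with no trend, separate fits per comparison, calls by adjusted p alone, and leaving out each library. The model was tested on simulated data. Tables and plots used Python 3.11.15 with matplotlib 3.10.9 (plots), numpy 2.4.6 and pandas 2.3.3.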

Additional observations from a re-analysis of the deposited data

How the results depend on the processing

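Without the limit of 1 on the log2 fold change, 9 members were higher and 1 lower in LIF-ESCs against -LIF-ESCs, and 8 were higher and 1 lower in OSM-ESCs. The shares of all genes higher and lower by that rule were 42.2% and 25.9% with LIF, and 42.9% and 25.4% with OSM. Rescaling by the median ratio left 2 members called higher in each of these comparisons (beside 10.5% and 11.1% of all genes), as did voom (beside 14.7% and 15.4%), since Psph went under the limit. Rescaling also reversed Gldc in OSM-ESCs against -LIF-ESCs to a log2 fold change of -0.12 and took Gldc and Mat2a with LIF, and Mat2a with OSM, out of the test. With each library left out in turn, 3 to 3 members were called higher with LIF and 2 to 3 with OSM, the lower count without -LIF replicate 1 or without OSM replicate 2, where Psph had a log2 fold change of 0.99, just under the limit. Between OSM-ESCs and LIF-ESCs, where no member passed, values close to 0 changed sign: with 1 library left out, Phgdh ranged from -0.001 (without LIF replicate 2) to 0.0504, Psat1 from -0.0269 to 0.021 (without OSM replicate 2; 0.0021 without LIF replicate 1), and Mat2a from -0.0463 to 0.0208 (without OSM replicate 2). The samples share only a replicate number, since deviations from the group means of same-numbered libraries correlated at -0.043 to 0.027, and the fit with a replicate block called 3 members higher with LIF, 3 with OSM and 0 between the cytokines. The members kept their direction and side of the test under the other filters, the pseudocount of 0.1, no trend and the fit of only the groups compared. The number of all genes past the test between the cytokines did depend on the model: 110 as reported, 187 with the 5 TPM filter, 62 with the pseudocount of 0.1, 12 without a trend, 1337 with voom, 0 with the block or only the groups compared, and 0 to 1 with a library left out. Depth limits no member with recovered reads, and the 2 libraries per group limit all of them.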
